A study of Mus musculus with 14 samples.

Results

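The Hox cluster genes were followed across undifferentiated mouse embryonic stem cells (ESC) and the embryoid bodies (EB) grown from them. The members were the 38 Hox gene symbols listed for the 4 mouse clusters, HoxA to HoxD. The listing went by gene symbol and not by measured values, but it was made with earlier results of these data known. Of these, 33 had at least 1 probe set assigned to them alone on the array, among 18194 genes so represented, and the 33 held 48 probe sets. Hoxa6, Hoxb8, Hoxc11, Hoxc12 and Hoxd4 had no probe set of their own, and no intensity is described for them. Promoter windows of Hoxa6, Hoxb8 and Hoxd4 are counted below all the same. The remaining 3 probe sets that carried a Hox symbol carried several symbols and were not used.

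Wild-type (WT) cells and cells labelled TKO were compared in both states, with 1 Affymetrix array per cell line and state. The series title names the Rb gene family, so TKO is read here as a triple knockout of Rb1, Rbl1 and Rbl2, which encode the pocket proteins that restrain E2F factors and entry into the cell cycle. The WT lines B21, J1 and R1 gave 3 ESC and 3 EB arrays. The TKO lines 7-4-1, Dutch and Ta1-12 gave 3 ESC and 3 EB arrays, and the TKO lines 14-14-4 and 2-55-2 gave an EB array alone, which made 5 TKO EB arrays. The sources used here do not give the age of the embryoid bodies. Each array was of 1 line, so the spread within a group is a spread between lines, and no line was measured more than once in a state. Values within a group are printed below in the order B21, J1, R1 for WT, in the order 7-4-1, Dutch, Ta1-12 for TKO ESC, and in the order 14-14-4, 2-55-2, 7-4-1, Dutch, Ta1-12 for TKO EB.

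Hox genes encode homeodomain transcription factors that give cells their position along the head to tail axis. Within each cluster the genes lie in the order in which the embryo switches them on, with low paralog numbers active early and in the hindbrain and high numbers active later, in the trunk, tail and limbs. In ESC the clusters are held silent by Polycomb proteins, and retinoic acid, Wnt and Fgf signals open them during differentiation. Hox proteins bind DNA together with TALE homeodomain partners of the Pbx, Meis and Pknox families. The members are grouped here by paralog number into anterior (1 to 3), central (4 to 8) and posterior (9 to 13) genes.

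Promoter windows from 250 bases before to 50 bases after the transcription start were read for 22 of the 38 genes from RefSeq on the GRCm38.p6 build, 24 windows in all. The hexamer AGGTCA, the half-site that retinoic acid receptors and other nuclear receptors recognise, was present on either strand in 7 of the 24 windows (29.2%), beside 16.3% of 32851 windows of the same length over all genes. The Pbx-Hox composite letters TGATNNAT were in 16.7% of the Hox windows and 8.85% of all windows, and the TATA box letters TATAAA in 16.7% and 13.6%. The Cdx letters TTTATGG were in 4.17% of the Hox windows beside 2.75% of all, and the E2F letters TTTNNCGC in 4.17% beside 5.17%. Both strands were searched for each motif, windows were counted for each motif on its own, and sites of different motifs may share bases. The Hox windows held a median of 14.5 CpG dinucleotides (range 4 to 45) against 7 over all windows. A match is a run of letters and was not tested as a binding site. One window with the half-site is shown from each cluster, and the Hoxa10 window is shown as one that lacks it. Hoxb2, Hoxb3 and Hoxc8 had no window, and Hoxc4, which was not called in either genotype, gave the only HoxC window. A link between the half-site and the changes described below was not tested. The sequences run 5′ to 3′ on the gene's strand, and capitals mark AGGTCA or its reverse complement TGACCT. Hoxa5 lies on the minus strand at chr6:52204538-52204837, Hoxb4 on the plus strand at chr11:96318017-96318316, Hoxc4 on the plus strand at chr15:103034145-103034444, Hoxd8 on the plus strand at chr2:74704365-74704664 and Hoxa10 on the minus strand at chr6:52234890-52235189.
Hoxa5: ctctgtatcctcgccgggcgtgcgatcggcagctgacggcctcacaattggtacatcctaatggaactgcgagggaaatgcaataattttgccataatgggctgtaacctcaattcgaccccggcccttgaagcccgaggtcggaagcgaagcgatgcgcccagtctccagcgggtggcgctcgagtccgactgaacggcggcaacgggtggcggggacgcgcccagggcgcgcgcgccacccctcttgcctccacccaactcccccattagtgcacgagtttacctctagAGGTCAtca
Hoxb4: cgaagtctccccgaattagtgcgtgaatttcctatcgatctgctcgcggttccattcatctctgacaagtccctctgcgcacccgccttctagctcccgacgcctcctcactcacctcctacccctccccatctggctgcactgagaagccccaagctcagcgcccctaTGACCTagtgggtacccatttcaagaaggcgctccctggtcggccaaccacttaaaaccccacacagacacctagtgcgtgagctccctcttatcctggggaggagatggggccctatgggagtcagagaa
Hoxc4: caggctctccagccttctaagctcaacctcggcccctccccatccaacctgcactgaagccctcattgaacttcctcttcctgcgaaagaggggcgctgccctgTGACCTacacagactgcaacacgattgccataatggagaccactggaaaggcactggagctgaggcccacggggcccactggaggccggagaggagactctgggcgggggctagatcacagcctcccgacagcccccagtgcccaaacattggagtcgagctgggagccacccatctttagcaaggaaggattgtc
Hoxd8: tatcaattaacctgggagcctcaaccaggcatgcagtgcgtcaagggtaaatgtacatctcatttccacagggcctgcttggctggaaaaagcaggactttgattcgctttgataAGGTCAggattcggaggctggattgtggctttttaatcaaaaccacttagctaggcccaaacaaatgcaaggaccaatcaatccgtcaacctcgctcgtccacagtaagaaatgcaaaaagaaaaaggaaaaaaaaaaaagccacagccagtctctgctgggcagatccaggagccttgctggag
Hoxa10: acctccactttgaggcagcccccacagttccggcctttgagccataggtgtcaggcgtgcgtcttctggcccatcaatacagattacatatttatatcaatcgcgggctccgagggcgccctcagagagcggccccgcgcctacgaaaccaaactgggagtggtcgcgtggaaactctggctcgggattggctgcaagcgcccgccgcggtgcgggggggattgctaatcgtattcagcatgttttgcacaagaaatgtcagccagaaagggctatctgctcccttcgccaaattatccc

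Values are intensities on a linear scale as the authors deposited them, with array medians between 83.2 and 107.9. Of the targeted genes, Rbl1 read 694, 462 and 356 in WT ESC and 24.5, 250.3 and 493 in TKO ESC. In EB it read 586, 1090 and 493 in WT and 15.9, 31.7, 38.3, 377 and 1096 in TKO. Both arrays labelled TKO Ta1-12, and the Dutch ESC and EB arrays to a lesser degree, thus carried Rbl1 signal near or within the WT range. Rb1 read 636, 138 and 791 in WT ESC and 197, 607 and 116 in TKO ESC, and 1018, 407 and 686 in WT EB and 492, 913, 834, 888 and 301 in TKO EB, so the groups overlapped in both states. Rbl2 read 661, 562 and 411 in WT ESC and 799.7, 658 and 843 in TKO ESC, and 1727, 1684 and 723 in WT EB and 314, 297, 733, 456 and 1099 in TKO EB. These probe sets thus did not separate the labels for Rb1 in either state and did not read lower in TKO for Rbl2 in ESC, so the label is not settled by them, and TKO below means the arrays so labelled. The sources used here do not say where the probe sets lie relative to the deleted parts. Counts and calls for TKO are also given without line Ta1-12. All 10 markers of pluripotent cells were over the 40th percentile of intensity in each of the 6 ESC arrays, where they summed to 76518 to 107610. The 10 markers of fibroblasts, which serve as feeder cells in many ESC cultures, summed to 571 to 1078 there, against 91583 to 107226 in WT EB.

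In ESC the Hox genes were dim. Between 5 and 10 of the 33 measured members exceeded the array's 40th percentile (intensity 51.3 to 64.4) on an ESC array, beside 17 to 22 on a WT EB array and 11 to 26 on a TKO EB array. All 6 ESC arrays lay below the floor of 32, to which lower values were raised before log2, for Hoxa2, Hoxa3, Hoxa10, Hoxb2, Hoxb6, Hoxc8 and Hoxc10, among others. A log2 fold change against a group under the floor is therefore understated.

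**Figure D1:**
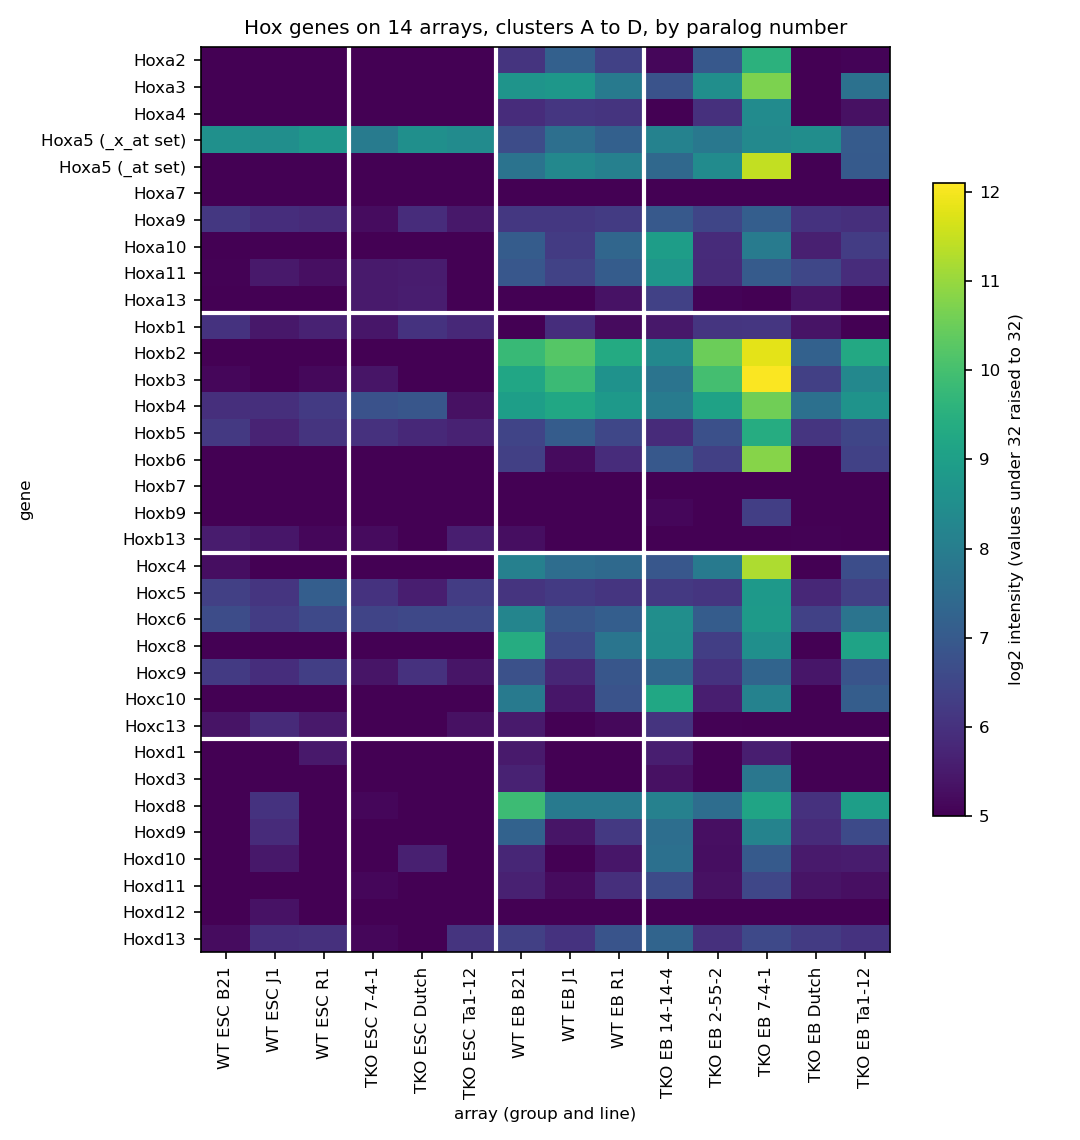
Heat map of log2 intensity, with values under 32 shown at the floor, for each Hox gene (rows, HoxA to HoxD in paralog order, 1 probe set per gene and both for Hoxa5) on each of the 14 arrays (columns, by group). ESC columns are mostly at or near the floor, WT EB columns are brighter, and among TKO EB the column of 7-4-1 is brightest and that of Dutch is dimmest; Hoxb2, for example, read 3561 in 7-4-1 EB and 146 in Dutch EB.

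Testing required 3 or more arrays with an intensity over that array's 40th percentile, which 23 of the 33 measured Hox genes met, among 14365 genes in all. Of the 23, 12 had no ESC array above that percentile and passed through EB alone, so counts over the tested members carry no weight by themselves. In WT EB versus WT ESC, 7 of the 23 rose and 1 fell at an adjusted p under 0.05 (limma, Benjamini-Hochberg over all genes tested), beside 26.2% of all tested genes called higher and 17.4% called lower. In TKO EB versus TKO ESC, 11 of the 23 rose and none fell, beside 20.8% called higher and 14.9% called lower of all genes. At an unadjusted p under 0.05 no member was lower there either, with 45.7% of all genes past that level in either direction. Without line Ta1-12 the count in TKO was 6 higher, where 21.7% of all genes were called in either direction. With line as a replicate block it was 5 (22% of all genes), beside 9 calls in WT (37.4%). The count in TKO ran from 4 without the 7-4-1 ESC array (25.2% of all genes called) to 17 without the Dutch EB array (43.6%). Without line Ta1-12 the TKO calls of Hoxa3, Hoxa10, Hoxa11, Hoxc8 and Hoxd9 were lost (adjusted p = 0.103, 0.0779, 0.0971, 0.141 and 0.124 by limma).

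The median log2 fold change of the 23 was 1.03 in WT and 1.46 in TKO, beside 0.13 and 0.08 over all tested genes. All WT EB arrays exceeded all WT ESC arrays for 17 of the 23 members, beside 35.1% of all genes, and all TKO EB arrays exceeded all TKO ESC arrays for 9, beside 21.1%. Since 12 of the 23 passed the filter through EB alone, these medians and separations carry no weight by themselves. By zone, 3 of 5 tested anterior, 3 of 10 central and 1 of 8 posterior genes rose in WT. In TKO, 3 anterior, 3 central and 5 posterior genes rose. The difference between the zones' counts was not tested, and the 5 posterior calls in TKO were lost with only the groups compared in the fit. Bulk arrays cannot tell a larger share of cells with a transcript from more transcript per cell.

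**Figure D2:**
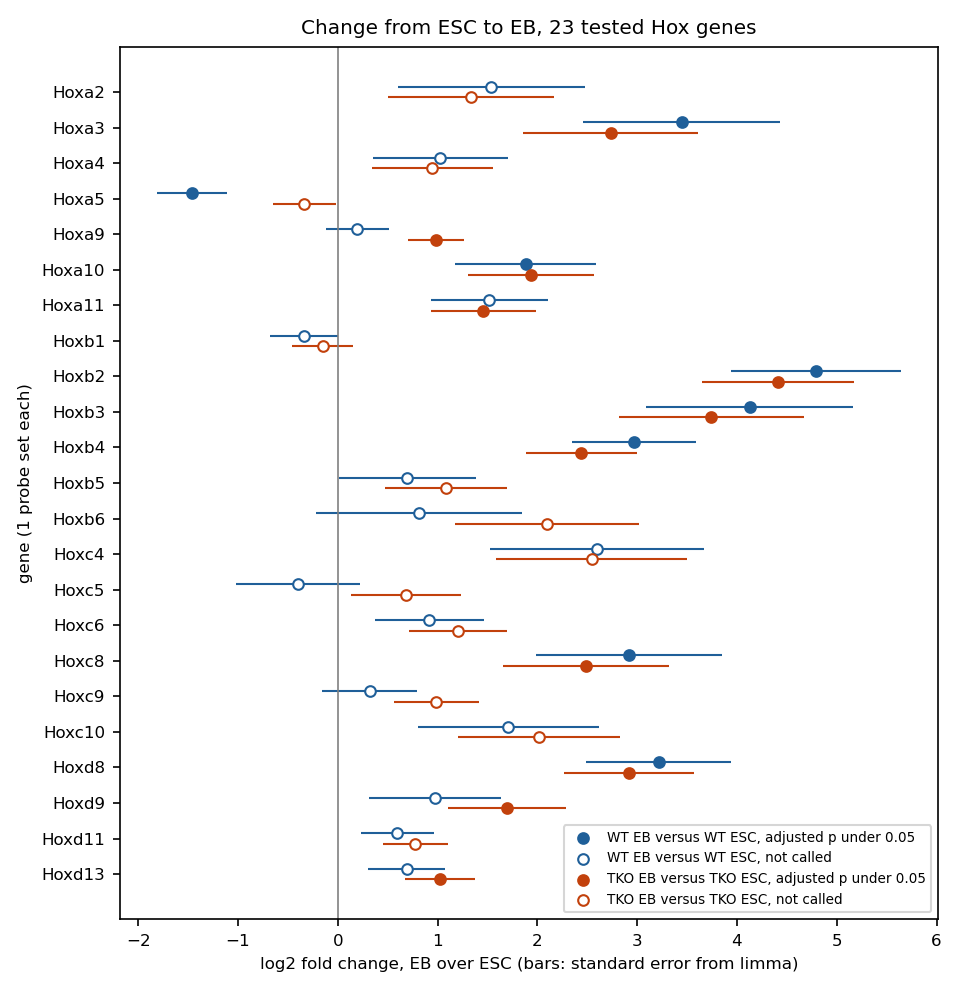
Log2 fold change of EB over ESC (points, filled where called, with the standard error from limma as bars) for the 23 tested Hox genes in WT and in TKO, in paralog order. Hoxb2 lies farthest to the right in both genotypes at 4.79 and 4.41, and Hoxa5, shown by its _x_at probe set, is the called gene to the left of 0 at -1.46 in WT.

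Hoxb2 and Hoxb3 led the anterior genes. Hoxb2, which patterns the hindbrain and the facial motor neurons, read 15, 13.7 and 10.5 in WT ESC and 889, 1207 and 651 in WT EB. It read 15.5, 15.3 and 16.1 in TKO ESC and 316, 1451, 3561, 146 and 620.5 in TKO EB. No EB array overlapped the ESC arrays, and the TKO EB arrays enclosed the WT range on both sides, with Dutch lowest and 7-4-1 highest. The log2 fold change was 4.79 ± 0.85 (SE, n = 3 and 3, adjusted p = 0.00118 by limma) in WT and 4.41 ± 0.76 (n = 5 and 3, adjusted p = 0.00107) in TKO. Each of these calls held when any 1 of the 14 arrays was left out.

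Hoxb3, a hindbrain and pharyngeal arch gene, read 34.9, 25.1 and 35.6 in WT ESC and 589, 912 and 394 in WT EB. In TKO it read 42.4, 16.9 and 21.3 in ESC and 211, 1005, 4289, 81.1 and 315 in EB. The groups did not overlap in either genotype, and 7-4-1 EB was again the brightest array. The change in log2 was 4.13 ± 1.04 (adjusted p = 0.00747 by limma) in WT and 3.75 ± 0.93 (adjusted p = 0.0082) in TKO. Its other probe set read 2.20 to 25.0 over the ESC arrays and 15.8 to 722 over the EB arrays, and in a fit of every probe set on its own it was not called (log2 1.82, adjusted p = 0.0949 in WT, and 1.57, adjusted p = 0.118 in TKO).

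Hoxa3, required for the thymus and parathyroid, read 15.1, 23.5 and 20.1 in WT ESC and 410.3, 430.3 and 239.7 in WT EB. Its TKO values were 11.8, 13.4 and 25.3 in ESC and 113, 362, 1661, 30.1 and 202 in EB. The Dutch EB array stayed under the floor with the ESC arrays, so the TKO groups met there. The log2 fold change was 3.45 ± 0.98 (adjusted p = 0.0138 by limma) in WT and 2.73 ± 0.88 (adjusted p = 0.0287) in TKO, and with line as a replicate block the TKO call was lost (adjusted p = 0.0737). That call was also lost without 2-55-2 EB or without any 1 TKO ESC array, with adjusted p from 0.00165 to 0.0776 over the 14 omissions. Of its 3 other probe sets, the next brightest read 40.5, 22.8 and 16.1 in WT ESC, 115, 108 and 59.0 in WT EB, 57.4, 55.8 and 56.6 in TKO ESC and 43.6, 111, 158, 34.9 and 44.0 in TKO EB. Fitted on its own it rose in WT (log2 1.38, adjusted p = 0.0383) and not in TKO (0.20, adjusted p = 0.742), and the TKO call of Hoxa3 was lost with the mean of its probe sets (log2 0.73, adjusted p = 0.106). The remaining pair stayed at or below 34.2 on every array.

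Hoxa2, the determinant of second pharyngeal arch identity, read 10.5 to 22.5 over the 6 ESC arrays, 66.5, 146 and 83.1 in WT EB and 34.9, 123, 749, 15.4 and 33.6 in TKO EB. Every WT EB array exceeded every ESC array, yet neither change passed the test (log2 1.54, adjusted p = 0.195 in WT, and 1.34, adjusted p = 0.229 in TKO, limma). Hoxb1, the earliest hindbrain gene of its cluster, read 43.5 to 65.8 over ESC and 27.9 to 70.1 over EB, with overlapping groups (log2 -0.34 in WT and -0.15 in TKO, adjusted p = 0.444 and 0.725). Hoxd1 and Hoxd3 were too dim to be tested, with Hoxd3 at 226 in 7-4-1 EB and at or below 51.4 on every other array.

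**Figure D3:**
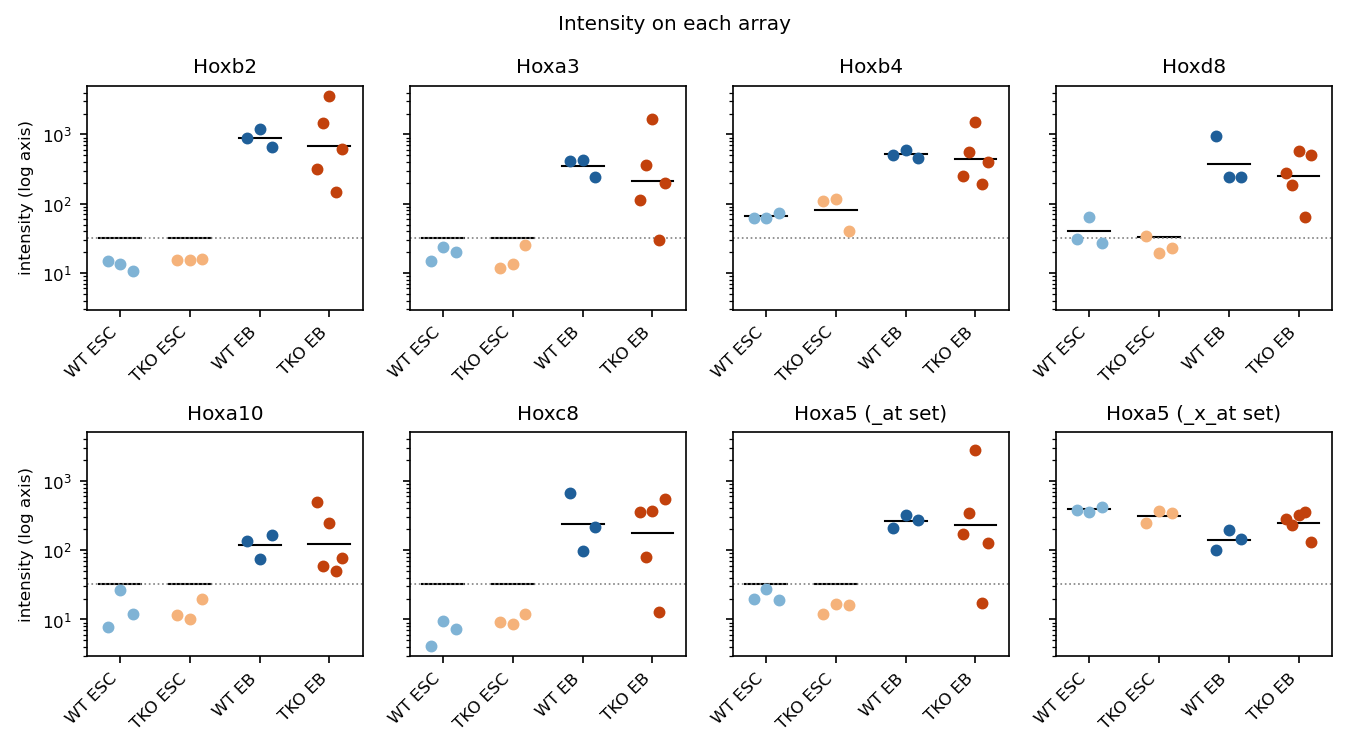
Intensity (log axis, 1 point per array) of Hoxb2, Hoxa3, Hoxb4, Hoxd8, Hoxa10, Hoxc8 and both Hoxa5 probe sets in the 4 groups, with the mean of log2 values as a bar and the floor of 32 as a dotted line. EB points lie above ESC points for Hoxb2 and Hoxb4 in both genotypes, the TKO EB points of Hoxb2 run from 146 to 3561, and the _x_at set of Hoxa5 is lower in WT EB than in WT ESC.

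Among the central genes Hoxb4, Hoxc8 and Hoxd8 rose in both genotypes. Hoxb4, known for its part in blood stem cell expansion, read 62.7, 62.1 and 74.1 in WT ESC and 504, 601 and 456 in WT EB. In TKO it read 110.2, 119 and 40 in ESC and 248, 549, 1507, 195 and 398 in EB. All EB arrays exceeded all ESC arrays. Hoxb4 rose by 2.97 ± 0.62 on the log2 scale (adjusted p = 0.00282 by limma) in WT and 2.44 ± 0.56 (adjusted p = 0.00512) in TKO. Its second, dimmer probe set read 9.83 to 19.7 over ESC and 22.1 to 343 over EB, with Dutch EB under the floor, and fitted on its own it was not called (log2 1.46, adjusted p = 0.0987 in WT, and 1.05, adjusted p = 0.193 in TKO).

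Hoxd8, a trunk gene, read 30.8, 65.2 and 27.3 in WT ESC and 934, 239 and 240.1 in WT EB. It read 34.7, 19.3 and 22.8 in TKO ESC and 277, 186, 568, 64.2 and 504 in TKO EB. The groups did not overlap in either genotype, and the highest array was WT B21. Hoxd8 rose by 3.22 ± 0.73 on the log2 scale (adjusted p = 0.00426 by limma) in WT and 2.92 ± 0.65 (adjusted p = 0.0046) in TKO. Its second probe set ran the same way, with 12.7 to 50.3 over ESC and 66.0 to 612 over EB.

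Hoxc8, which acts in the thoracic skeleton and in brachial motor neurons, read 4.11, 9.47 and 7.21 in WT ESC and 676, 97.1 and 216 in WT EB. In TKO the values were 9.26, 8.53 and 11.8 in ESC and 357, 79.8, 369, 13 and 551 in EB. WT B21 was brightest, and Dutch stayed under the floor. The log2 fold change was 2.92 ± 0.93 (adjusted p = 0.0234 by limma) in WT and 2.49 ± 0.83 (adjusted p = 0.0339) in TKO. The WT call was lost without B21 EB or without any 1 of the WT ESC arrays, with adjusted p up to 0.105, and the TKO call with line as a replicate block (adjusted p = 0.0739). Without 14-14-4, 7-4-1 or Ta1-12 EB or any 1 TKO ESC array the TKO call was lost too, with adjusted p up to 0.0884.

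Hoxa5, which is required for lung and trachea, gave opposite readings on its 2 probe sets. The set with the suffix _x_at, which stands for the gene here because its mean log2 value was higher, read 381, 361 and 423 in WT ESC and 100.4, 194 and 144 in WT EB. Its TKO values were 248, 374 and 341 in ESC and 285, 229, 326, 354 and 132 in EB. It fell in WT (log2 -1.46 ± 0.35, adjusted p = 0.00593 by limma) and overlapped between TKO EB and TKO ESC (log2 -0.33 ± 0.31, adjusted p = 0.43). The other set, with the suffix _at, read 19.7, 27.7 and 19.1 in WT ESC, 12.0, 16.8 and 16.1 in TKO ESC, 210.1, 317 and 271 in WT EB and 169, 345, 2819.9, 17.4 and 129 in TKO EB. In a fit of every probe set on its own it rose by 3.04 ± 1.09 (adjusted p = 0.0384) in WT and by 2.86 ± 0.97 (adjusted p = 0.0354) in TKO. The direction of Hoxa5 therefore depends on the probe set, and Affymetrix uses the suffix _x_at for sets whose probes may also match other transcripts. Which transcript the _x_at set read was not tested.

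The other tested central genes did not pass the test in either genotype by the probe set that stands for them. Hoxc4 read 3.75 to 38.3 over the ESC arrays, 276, 185 and 170.5 in WT EB and 121, 238, 2386, 6.12 and 103 in TKO EB. The EB arrays other than Dutch exceeded every ESC array (log2 2.60 ± 1.07 in WT, adjusted p = 0.0655, and 2.54 ± 0.96 in TKO, adjusted p = 0.0545, limma). Hoxb6 read 3.31 to 19.0 over ESC, 81.0, 36.8 and 59.7 in WT EB and 124, 81.4, 1791, 9.45 and 82.8 in TKO EB (log2 2.10 ± 0.92 in TKO, adjusted p = 0.0937). Hoxc6 read 76.7 to 99.6 over ESC, 298, 119 and 139 in WT EB and 368, 135, 471, 82.7 and 211 in TKO EB (log2 1.21 ± 0.49 in TKO, adjusted p = 0.0718). Another Hoxc6 set read 21 to 61.5 over ESC, 88.7 to 163 over the WT EB arrays and 57.1 to 287 over those of TKO, and fitted on its own it rose in TKO (log2 1.71, adjusted p = 0.011) and missed the threshold in WT (1.23, adjusted p = 0.065).

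Hoxa4, Hoxb5 and Hoxc5 were each brightest on 1 array. They reached 343, 680.1 and 453 in 7-4-1 EB, while the other 7 EB arrays lay at 21.3 to 69.9 for Hoxa4, 58.8 to 133 for Hoxb5 and 55.2 to 81.9 for Hoxc5. Over the ESC arrays they read 3.46 to 31.8, 51.7 to 72.7 and 48.5 to 140.4, with the highest Hoxc5 value in WT R1. Every WT EB array exceeded every WT ESC array for Hoxa4 (59.5, 69.9 and 66.9 in EB) and Hoxb5 (87.2, 133 and 91.7). The log2 changes in WT were 1.03 for Hoxa4 and 0.70 for Hoxb5 (adjusted p = 0.232 and 0.425 by limma). In TKO they were 0.95 and 1.09 (adjusted p = 0.242 and 0.185). Another Hoxa4 set read 62.7, 61.4 and 46.4 in WT EB and 261 in 7-4-1 EB. Hoxb5 and Hoxc5 exceeded the 40th percentile on 12 of the 14 arrays each. A second Hoxc5 probe set gave 5.78 to 13.4 in ESC and 75.5, 46.9 and 61.0 in WT EB. In TKO EB it gave 678 in 7-4-1 and 14.2 to 79.2 on the other arrays. The 2 Hoxc5 sets differed in sign in WT, and neither was called when each was fitted on its own. The log2 changes in WT were -0.40 for the first (adjusted p = 0.622 by limma) and 0.91 for the second (adjusted p = 0.422). In TKO they were 0.68 (adjusted p = 0.347) and 1.16 (adjusted p = 0.266). Hoxa7 was listed at 1.48 or below on all 14 arrays, and Hoxb7 at 17.9 or below.

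Of the 8 tested posterior genes, 1 rose in WT and 5 in TKO, beside 26.2% and 20.8% of all tested genes called higher. The contrast did not hold with only the groups compared in the fit. There Hoxa10 stayed called in WT and Hoxa11 and Hoxc10 were gained, with 46.2% of all genes called in either direction. All 5 TKO calls were lost there, with 27% of all genes called. Hoxa10, a limb, uterus and blood gene, read 7.78, 26.8 and 12.2 in WT ESC and 135, 74.8 and 163 in WT EB. It read 11.7, 10.0 and 19.8 in TKO ESC and 497, 58.5, 249.8, 49.6 and 76.1 in TKO EB, with every EB array above every ESC array and 14-14-4 highest. Hoxa10 rose by 1.88 ± 0.71 on the log2 scale (adjusted p = 0.046 by limma) in WT and 1.93 ± 0.63 (adjusted p = 0.0305) in TKO. The WT value lies close to the threshold. Its adjusted p ranged from 0.0113 to 0.122 as arrays were left out, and the call was lost without B21 or R1 EB and without any 1 ESC array of either genotype. In TKO it was lost without 7-4-1 EB or any 1 TKO ESC array (adjusted p up to 0.0814), and with line as a replicate block (adjusted p = 0.052). A second Hoxa10 probe set stayed under the floor, at or below 28.4, on all 14 arrays.

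Hoxa11, which patterns the forearm and the kidney, read 33.2, 45.1 and 39.1 in WT ESC and 122, 84.4 and 133 in WT EB, and 45.7, 46.1 and 32.1 in TKO ESC and 426, 57.3, 132, 91.1 and 59.5 in TKO EB. The groups were separate in both genotypes. The log2 fold change was 1.52 ± 0.59 in WT, which missed the threshold (adjusted p = 0.0518 by limma) and passed it with line as a replicate block (adjusted p = 0.0118), and 1.46 ± 0.52 (adjusted p = 0.0456) in TKO. The TKO call was lost without 7-4-1 EB, any 1 TKO ESC array or any 1 WT array, with adjusted p from 0.027 to 0.148.

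Hoxa9, a regulator of blood progenitors, read 71.6, 60.6 and 57.5 in WT ESC, 71.4, 70.4 and 75 in WT EB, 37.7, 59.8 and 43.7 in TKO ESC and 127, 88.8, 140.4, 65.2 and 62.4 in TKO EB. It rose in TKO (log2 0.99 ± 0.28, adjusted p = 0.0159 by limma) and its WT change was 0.20 ± 0.31 (adjusted p = 0.627). The difference between these changes was 0.79 (95% confidence interval -0.12 to 1.70, adjusted p = 0.975). Its other probe set read 23 to 31.3 over ESC, 77.6, 106 and 85.6 in WT EB and 415, 62.1, 383, 96.8 and 40.6 in TKO EB, and fitted on its own it rose in TKO (log2 2.04, adjusted p = 0.025) and missed the threshold in WT (1.47, adjusted p = 0.111).

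Hoxd9 and Hoxd13, lumbar and digit genes of the HoxD cluster, passed the test in TKO and not in WT. Hoxd9 read 20.2, 59.0 and 27.7 in WT ESC, 151, 42.0 and 72.8 in WT EB, 31.1, 24.9 and 22.3 in TKO ESC and 191, 39.0, 289, 58.4 and 96.9 in TKO EB (log2 1.70 ± 0.59 in TKO, adjusted p = 0.0393, and 0.98 ± 0.66 in WT, adjusted p = 0.242, limma). Hoxd13 read 37.8, 61.4 and 63.5 in WT ESC, 82.0, 66.2 and 114 in WT EB, 35.2, 23.5 and 66.5 in TKO ESC and 156, 63.2, 94.9, 75.2 and 66.1 in TKO EB (log2 1.03 ± 0.35 in TKO, adjusted p = 0.0358, and 0.69 ± 0.39 in WT, adjusted p = 0.166). The differences between genotypes in these changes were 0.72 (-1.19 to 2.64) for Hoxd9 and 0.34 (-0.79 to 1.47) for Hoxd13, so neither was shown to differ. A second Hoxd13 probe set stayed under the floor, at or below 28.1, on all 14 arrays. The TKO calls of Hoxa9, Hoxd9 and Hoxd13 were lost with line as a replicate block (adjusted p = 0.139, 0.0679 and 0.123). As single arrays were left out, the adjusted p reached 0.0759 for Hoxa9 (lost without 7-4-1 or Ta1-12 ESC) and 0.0981 for Hoxd9 (lost without 14-14-4, 7-4-1 or Ta1-12 EB or any 1 TKO ESC array). For Hoxd13 it reached 0.146 (lost without 14-14-4 or 7-4-1 EB or without 7-4-1 or Dutch ESC), and under quantile normalisation or median centring of the arrays the Hoxd13 and Hoxa11 calls in TKO and the Hoxa10 call in WT were lost.

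Hoxc10, a lumbar motor neuron and hindlimb gene, read 1.88 to 15.3 over ESC, 238, 42.8 and 112 in WT EB and 598, 48.7, 285, 29.4 and 135 in TKO EB. All EB arrays exceeded all ESC arrays in raw intensity, yet the log2 changes of 1.71 ± 0.91 in WT and 2.01 ± 0.81 in TKO missed the threshold (adjusted p = 0.142 and 0.0697 by limma). Hoxc9 and Hoxd11 were also brightest in 14-14-4 EB and ranged from 42.8 to 167 and from 36.9 to 98.8 over EB, with no call in either genotype. Hoxd10 was not tested, and read 198 in 14-14-4 EB and 129 in 7-4-1 EB against 15.1 to 54.7 on the other 12 arrays. Hoxa13, Hoxb9, Hoxb13, Hoxc13 and Hoxd12 were likewise not tested and reached at most 83.4 on any array.

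The arrays labelled TKO were compared with WT within each state and in the change from ESC to EB. In TKO ESC versus WT ESC no Hox gene passed the test, none reached an unadjusted p under 0.05, and 394 of all 14365 genes (2.74%) did so without any passing the adjustment. In TKO EB versus WT EB no Hox gene passed in the fit with limma either, beside 0 of all genes, and 1 Hox gene, Hoxa5 by its _x_at set, had an unadjusted p under 0.05, beside 14.2% of all genes. That set read 0.83 (95% confidence interval 0.15 to 1.51) higher in TKO EB on the log2 scale (adjusted p = 0.315). It was called higher when the Ta1-12 EB array or the whole Ta1-12 line was left out, where 9.57% and 7.64% of all genes were called and Hoxa5 was the 1 Hox gene among them. The _at set of Hoxa5, fitted on its own, went the other way by -0.17 (adjusted p = 0.947 by limma). No Hox gene had all TKO EB arrays on 1 side of all WT EB arrays, beside 0.835% of all genes for higher and 3.05% for lower.

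The difference between the TKO and WT changes passed for no Hox gene and for 0 of all 14365 genes in limma. Again 1 Hox gene, Hoxa5 by its _x_at set (log2 1.13), had an unadjusted p under 0.05, beside 3.63% of all genes. The _at set of Hoxa5, fitted on its own, gave a difference of -0.17 (adjusted p = 0.998 by limma). The intervals were wide and do not show that the genotypes act alike. For Hoxb2 the TKO EB minus WT EB difference was -0.38 (-2.03 to 1.27), for Hoxb4 -0.24 (-1.44 to 0.96), for Hoxa3 -0.71 (-2.61 to 1.19), for Hoxb6 1.28 (-0.71 to 3.28), for Hoxd8 -0.60 (-2.01 to 0.81) and for Hoxa11 0.01 (-1.13 to 1.14), as 95% confidence intervals on the log2 scale.

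The Hox genes spread widely between the TKO EB lines. Over the 33 measured Hox genes the median SD of log2 intensity was 1.15 between the 5 TKO EB arrays, beside 0.35 over all 18194 genes, and 19 of the 33 had an SD above 1, beside 10.7% of all genes. Between the 3 WT EB arrays the median SD was 0.39 (0.24 over all genes), with 3 of 33 above 1. The ESC groups had medians of 0.14 in WT and 0.05 in TKO, where most values lay at the floor. The groups differ in size, and the difference in spread was not tested.

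Line 7-4-1 was the brightest of the 8 EB arrays for 14 of the 23 tested Hox genes, beside 17.3% of all tested genes. It lay above the highest WT EB array for all 7 anterior, 8 of 12 central and 9 of 14 posterior measured genes, beside 28.2% of all 18194 genes. Its median difference from the WT EB mean on the log2 scale was 2.25 for anterior, 1.51 for central and 0.85 for posterior genes. Line 14-14-4 had another profile. It was brightest for Hoxa10, Hoxa11, Hoxc9, Hoxc10, Hoxd11 and Hoxd13, beside 7.86% of all tested genes, and exceeded the highest WT EB array for 13 of 14 posterior but 1 of 7 anterior genes, beside 23.2% of all genes, with medians of 0.97 and -1.42.

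Dutch EB was lowest for 14 of the 23, beside 23.1% of all tested genes, and lay -1.54 from the WT EB mean over anterior, -0.92 over central and -0.20 over posterior genes. Lines 2-55-2 and Ta1-12 lay nearer to WT, with anterior medians of 0.40 and -0.52 and posterior medians of -0.23 and -0.09. Within a line, 21 of the 23 Hox genes were at least 2-fold brighter in EB than in ESC in 7-4-1 (22.3% of all genes), 15 in B21 (27.8%), 13 in R1 (19.9%), 13 in Ta1-12 (25.8%), 11 in J1 (22.2%) and 4 in Dutch (10.7%). These are single arrays with no replicate of a line. As 12 of the 23 passed the filter through EB alone, the rises within lines carry no weight by themselves.

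**Figure D4:**
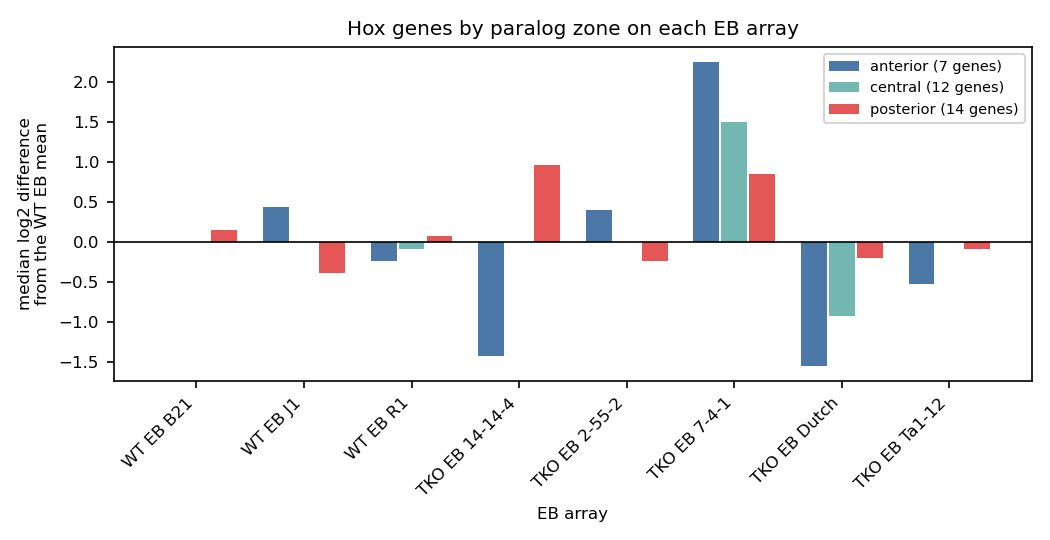
Median difference from the WT EB mean in log2 intensity (bars) over the 7 anterior, 12 central and 14 posterior measured Hox genes, for each of the 8 EB arrays. The medians of 7-4-1 descend from 2.25 to 0.85 from anterior to posterior, those of 14-14-4 ascend from -1.42 to 0.97, and those of Dutch lie below 0 in each zone.

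Markers of other cell types also differed between these lines. The 10 pluripotent markers summed to 5256 to 11718 in WT EB, with 3 to 6 of 10 above the 40th percentile and Esrrb under the floor on all 3 arrays. In TKO EB the sum was 61706 in 14-14-4 and 79635 in Dutch, with 10 of 10 markers above the percentile in each, 18494 in 2-55-2 (10 of 10), 10647 in 7-4-1 (9 of 10) and 9834 in Ta1-12 (3 of 10, with Pou5f1, Nanog, Esrrb and Utf1 under the floor). All 10 fibroblast and mesenchyme markers exceeded the percentile on every EB array, and their sum was 91583 to 107226 in WT EB, 113650 in 7-4-1, 56249 in 14-14-4 and 27028 in Dutch.

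The 7 measured neural progenitor markers summed to 2839 to 8494 in WT EB (4 to 6 of 7 above the percentile) and to 16802 in 7-4-1 (6 of 7), 6631 in 2-55-2, 3163 in Dutch, 2623 in Ta1-12 and 1359 in 14-14-4 (5 of 7, with Sox1 under the floor). The 7 cardiac muscle markers summed to 7905 to 48494 in WT EB and to 738 in 14-14-4, where Myh7 lay under the floor. They summed to 61093 in 2-55-2, 15560 in 7-4-1, 5978 in Dutch and 11416 in Ta1-12. The 5 limb and posterior mesoderm markers summed to 1461 to 3066 in WT EB. In TKO EB they summed to 1543 in 14-14-4, 2219 in 2-55-2, 2101 in 7-4-1, 903 in Dutch and 1210 in Ta1-12. Line 7-4-1, with the brightest anterior Hox genes, thus had the highest neural progenitor sum. Lines 14-14-4 and Dutch, with anterior medians of -1.42 and -1.54, had the highest pluripotent sums, while Ta1-12, at -0.52, had the lowest of the TKO EB arrays. The part of these cell types in the Hox values was not tested. Without 7-4-1 and Dutch EB, an alternative chosen after the values were seen, 11 Hox genes rose in WT and 13 in TKO, where 49.2% and 42.5% of all genes were called in either direction.

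Genes that work with or upstream of the clusters were described by lists of their families. Of the 8 tested TALE cofactor genes, 5 rose in WT and 6 in TKO, and none fell. Over all tested genes, 26.2% were called higher and 17.4% lower in WT, and 20.8% higher and 14.9% lower in TKO. Meis1 rose by 5.75 ± 0.64 on the log2 scale in WT and 5.39 ± 0.58 in TKO, and Meis2 by 4.78 ± 0.53 and 4.49 ± 0.48 (adjusted p = 1.12e-04 for both in WT, 6.42e-05 and 6.38e-05 in TKO, limma). Meis3 rose by 1.26 ± 0.40 and 1.25 ± 0.36. Pbx3 rose in TKO by 2.37 ± 0.58 (adjusted p = 0.00739) and was 1.58 ± 0.65 higher in WT (adjusted p = 0.0637). As with the Hox genes, 7-4-1 EB had the highest TALE sum, 20644 against 5309 in Dutch and 6936 to 12395 in WT EB.

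Of 16 tested retinoic acid pathway genes, 7 rose and none fell in WT, beside 26.2% of all tested genes called higher and 17.4% lower. In TKO 8 of the 16 rose and 1 fell, beside 20.8% and 14.9% of all genes. Rarb, a receptor gene and a direct target of retinoic acid, rose by 4.49 ± 0.49 in WT and 4.41 ± 0.44 in TKO (adjusted p = 1.01e-04 and 4.32e-05, limma). The retinoic acid synthesis gene Aldh1a2 rose by 2.80 ± 0.83 and 2.5 ± 0.75, and the degradation gene Cyp26a1 by 2.60 ± 0.90 and 3.10 ± 0.81. Crabp2, a retinoic acid carrier, rose in TKO (1.44 ± 0.46, adjusted p = 0.0276) and missed the threshold in WT (1.21 ± 0.51, adjusted p = 0.0712).

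Egr2, which marks rhombomeres 3 and 5 and activates Hoxa2 and Hoxb2 there, rose by 2.44 ± 0.62 in WT and 2.21 ± 0.56 in TKO (adjusted p = 0.00798 and 0.00873, limma). It read 240.3, 594 and 443 in WT EB and 213, 391, 87.3, 59.2 and 258 in TKO EB, so 14-14-4, 7-4-1 and Dutch lay below every WT EB array. Of these, 7-4-1 was the brightest EB array for Hoxa2 and Hoxb2 and Dutch was the dimmest. A link between Egr2 and these genes was not tested. Cdx2, an activator of central and posterior Hox genes, changed by 0.32 ± 0.41 and 0.76 ± 0.37 and did not pass (adjusted p = 0.546 and 0.126), nor did the other 2 tested genes of the Cdx and Evx list. Gbx2, which marks the border of midbrain and hindbrain, fell in both genotypes. The log2 change was -1.90 ± 0.42 in WT and -4.12 ± 0.38 in TKO (adjusted p = 2.43e-05 by limma in TKO). Gbx2 read 105, 155 and 105 in WT ESC and 822, 304 and 1064 in TKO ESC. In EB it read 7.5, 14.8 and 16.3 in WT and 17.9, 27.3, 66.9, 25.8 and 7.77 in TKO. Every EB array other than 7-4-1 lay under the floor, so both falls are understated. The larger TKO change began from a higher ESC level. Nr6a1, a regulator of trunk Hox genes, fell in WT (log2 -2.38 ± 0.73, adjusted p = 0.0196) and its TKO change of -1.65 ± 0.65 missed the threshold (adjusted p = 0.0661). Of 6 tested trithorax group genes, which keep Hox genes active, 2 rose and 2 fell in WT, and 1 rose and 2 fell in TKO. Over all tested genes the shares called higher and lower were 26.2% and 17.4% in WT and 20.8% and 14.9% in TKO. None of the tested genes of these lists passed in either comparison of genotypes or in the difference of the changes.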

How the data were processed

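Biotin-labelled RNA of 14 mouse cultures was measured on Affymetrix arrays, as the labels state. In the deposited table the authors give linear intensity per probe set (45101 sets, 0.596 to 25702). The sources used here do not name the background correction, scaling or summary. Medians of arrays lay within 0.374 (log2) of each other, and nothing was rescaled. Probe sets were named through the platform annotation: 34958 had 1 gene symbol, 932 several and 9211 none.

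Values under 32 were raised to 32 before log2. The probe set with the highest mean log2 value stood for a gene, and 11 of the measured Hox genes had several. Genes over the 40th percentile of intensity in 3 or more arrays were tested. With limma 3.58.1 under R 4.3.3, group means were fitted to the 14 arrays together (trended eBayes), so that errors also reflect spread in groups outside a comparison. P-values were adjusted by Benjamini-Hochberg over 14365 genes in each of 5 comparisons, with a threshold of 0.05. An error after ± is the standard error of that fit, on log2. The number of arrays limits the precision. The fit was checked on simulated data. Lines are taken as separate samples, as the series text calls them biological replicates.

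Lines named in both states pair ESC with EB. Their deviations from the group means correlated at -0.08 to 0.20 across genes, and the fit with line as a replicate block used the 12 arrays of 6 lines. Named were all Hox genes, the targeted genes and listed partner genes. Alternatives were other floors, filters, probe set rules, quantile normalisation, fewer groups, the block and leaving out arrays. The members and lists were chosen with earlier results of these data known.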

Additional observations from a re-analysis of the deposited data

Results flagged for a closer look

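The 23 tested Hox genes were each examined for a TKO EB array that stood far from the other 4, and 3 were found, each time line 7-4-1 as the highest. Hoxa4 read 343 there, Hoxb5 680.1 and Hoxc5 453, and the gap to the next array took 0.713, 0.758 and 0.813 of the group's whole range on the log2 scale with the floor of 32, above Dixon's critical value of 0.71 for 5 samples. On linear intensities 10 genes passed it, Hoxa11 through 14-14-4 and Hoxa2, Hoxa3, Hoxa4, Hoxb3, Hoxb4, Hoxb5, Hoxb6, Hoxc4 and Hoxc5 through 7-4-1. For normal values in independent groups, chance flags about 1 in 20. The linear intensities are skewed and most flags share the 7-4-1 array, so that rate cannot be set against these counts.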

How the results depend on the processing

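Genes called lower or called between genotypes, and the count of 7 higher in WT EB versus WT ESC, stayed within 1.5 times of the main count under most alternatives run. The exceptions follow, and their cause was not tested. The WT count was 12 with only the groups compared and 11 without 7-4-1 and Dutch EB, and 1 lower became 0 with the mean of probe sets or the probe set of highest linear mean. Under these 2 rules Hoxa5 in WT changed sign to 0.79 (adjusted p = 0.307) and 3.04 (adjusted p = 0.0393 by limma). The TKO count of 11 was 4 with the floor at 64, 5 with no filter (more genes tested), 7 with the filter at the 60th percentile, 4 with only the groups compared, 5 with line as a replicate block and 6 without line Ta1-12. Leaving out 1 array gave 4 to 17 higher in TKO, with 4, 5 and 5 without the 7-4-1, Dutch or Ta1-12 ESC array and 17 without Dutch EB. In TKO EB versus WT EB it gave 0 to 1 (1 without Ta1-12 EB, with 9.57% of all genes called), and 1 without line Ta1-12 (7.64%). The pairing of states by line (replicate block) gave 9 calls in WT and 0 between genotypes. Of the values of single genes under alternatives, 428 kept direction and side of the threshold, 96 kept direction and lost the call, and 2 reversed. Hoxb2, Hoxb3, Hoxb4 and Hoxd8 kept their calls in both genotypes without any 1 array. Signals near the array background, for which no detection calls were used, limit the dim Hox genes.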
